A study of Rattus norvegicus with 8 samples.

Results

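The genes described here are those of MHC class II antigen presentation in the rat, where the complex is called RT1: the invariant chain Cd74, the classical chains RT1-Da, RT1-Db1, RT1-Ba and RT1-Bb, the peptide editor chains RT1-DMa and RT1-DMb, and the transactivator Ciita. Members are all non-control probes of the array that carry one of these 8 gene names, which gave 10 probes among 30367. The group was chosen from measured values, since a lower level of Cd74 in stressed rats and a shared pattern of Cd74 and RT1-Da over the rats had been seen in these arrays. The differences between stressed and control rats and the correlations among the member genes are therefore given as a description, without a test, and nothing is read from their counts.

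The tissue was lumbar spinal cord of male Wistar rats of 12 weeks, measured on Agilent 1-colour arrays with 1 array per rat. The 4 stressed rats were placed on a platform surrounded by water in sessions of 1 h on 10 days (water avoidance stress), and cord was taken 24 h after the last session. The 4 control rats carried no other treatment in the labels, which distinguish the replicates only by their number. Stressed rat 4, for example, is the replicate numbered 4 of the stressed group. The cord was expelled from the column with fluid and the meninges were removed, so each value is an average over every cell of the segment that remained, and a smaller number of cells of a type cannot be told apart from less RNA per cell.

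MHC class II molecules are pairs of an alpha and a beta chain that carry peptides from ingested proteins to the cell surface, where CD4+ T cells inspect them. The invariant chain, encoded by Cd74, binds each new pair, blocks its groove and leads it to acidic compartments, where proteases cut the chain down to a short remnant that the DM molecule exchanges for peptide. The class II genes and Cd74 are switched on together by the transactivator CIITA, which docks on factors bound to the X and Y boxes of their promoters and is itself induced by interferon gamma. In healthy spinal cord most class II protein is found on macrophages of the vessels and borders, on rare dendritic cells and on scattered microglia.

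Levels are given as the log2 of the processed signal minus the 75th percentile of the same array, so that 0 is the signal of that percentile and 1 unit is a doubling. Levels of different probes are not compared, because probes differ in how strongly they bind. Of the 10 member probes, 9 exceeded the background clearly on 4 arrays or more and entered the fit, which covered 7 of the 8 genes. The probe of Ciita was not well above background on any array. The 75th percentile of the signal lay between 1751 and 2335 over the arrays, and each array had 23005 to 24066 probes well above background. All arrays shared 1 slide and 1 scan, the stressed rats being in row 1 and their controls in row 2, so row and stress cannot be told apart. Same-numbered rats of both groups shared a column. Control rat 2 stood apart within its group. On principal component 1, which held 54.1% of the variance, it lay at 46.1, against -56.2 to -39.4 in the other control rats and 8.23 to 34.5 in the stressed rats. Its 5′ probes were brighter relative to the 3′ probes of the same transcripts (0.19, median over 2022 transcripts). This median was -0.27 to -0.16 in the other control rats and 0.09 to 0.16 in the stressed rats. On both measures the other control rats lay apart from all stressed rats. Without control rat 2, these measures and stress therefore cannot be told apart. Each member difference below is also given without that rat.

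**Figure D1:**
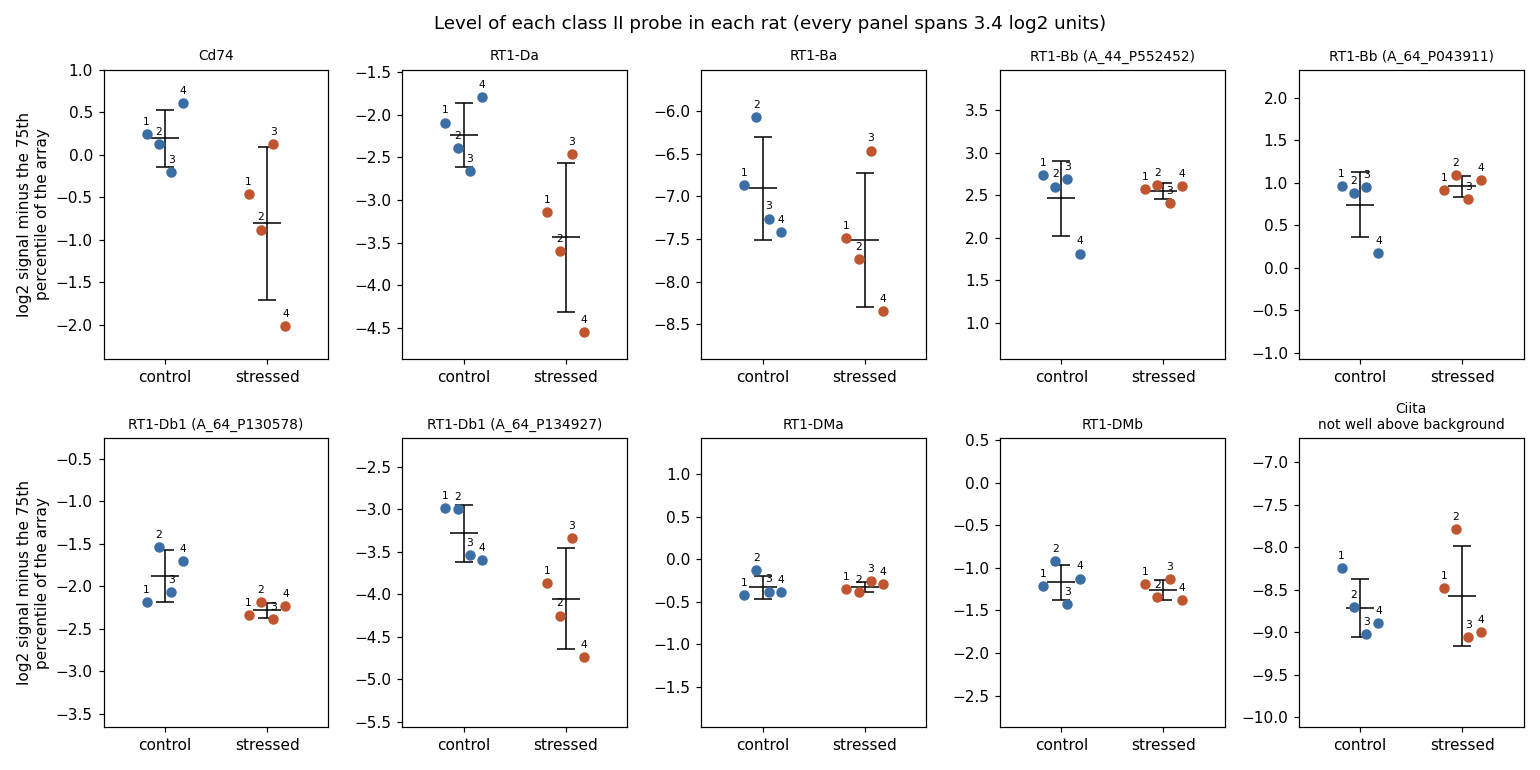
Level of each class II probe in each rat. The vertical axis is the log2 signal minus the 75th percentile of the array, every panel spans the same number of log2 units, numbers are replicates, and the black mark and bar are the mean and SD of 4 rats. Cd74 and RT1-Da reach from 0.61 and -1.79 in control rat 4 down to -2.01 and -4.55 in stressed rat 4, while RT1-DMa stays within 0.29 units.

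Cd74 encodes the invariant chain, the chaperone of every class II pair. Its level was 0.24, 0.13, -0.20 and 0.61 in control rats 1 to 4 and -0.46, -0.88, 0.12 and -2.01 in stressed rats 1 to 4. Stressed rats 1, 2 and 4 lay below all control rats, but stressed rat 3 lay within the control range, so the groups overlapped. In processed signal, Cd74 read between 2006 and 3569 in control rats and between 482 and 2095 in stressed rats. Control rats averaged 0.19 ± 0.34 (SD, n = 4) and stressed rats -0.81 ± 0.90 (SD, n = 4), a difference of -1.0 (SE 0.42). The spread was thus wider among the stressed rats, and the highest rat exceeded the lowest 6.16-fold, although the replicate spots of this probe differed by at most 0.08 log2 units on any array. Without stressed rat 4 the difference was -0.60, without stressed rat 3 it was -1.31, and without control rat 2 it was -1.02.

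RT1-Da encodes the alpha chain of the RT1-D molecule, the rat counterpart of HLA-DR. Its level was -2.09, -2.39, -2.66 and -1.79 in control rats 1 to 4 and -3.15, -3.60, -2.46 and -4.55 in stressed rats 1 to 4. As for Cd74, stressed rats 1, 2 and 4 were below every control rat and stressed rat 3 was not. Control rats averaged -2.23 ± 0.38 (SD, n = 4) and stressed rats -3.44 ± 0.88 (SD, n = 4), a difference of -1.21 (SE 0.42). It was -0.84 without stressed rat 4, -1.53 without stressed rat 3 and -1.26 without control rat 2. The highest and the lowest rat differed 6.78-fold, and the spots of the probe by at most 0.14 units.

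The order of the 8 rats was the same for Cd74 and RT1-Da. In both, control rat 4 was highest, followed by control rats 1 and 2, stressed rat 3, control rat 3 and stressed rats 1, 2 and 4. Pearson's r over the 8 arrays was 0.99 and Spearman's rho was 1, and the difference between both levels had an SD of 0.14 units over the rats, much less than the range of either gene (2.62 and 2.76). The relation was also present inside the groups, with r = 0.99 for the deviations of each rat from its group mean, and it did not rest on the extreme rats, with r = 0.99 without stressed rat 4 and 0.98 without stressed rats 2 and 4. These values carry no test: both genes were named for this pattern, and the 8 points share a slide and 1 normalization.

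The probes of both genes target different chromosomes and share no long stretch. That of Cd74 lies on chromosome 18 (rn4, chr18:56765468-56765527, plus strand) and that of RT1-Da on chromosome 20 (rn4, chr20:4641104-4641163, plus strand), and the longest run of bases common to both 60-base probes was 5 on the same strand and 6 on the other strand. Their first 30 bases are shown, 5′ to 3′ and in lower case throughout, to let the pair be compared. Exons and UTRs were not analysed.

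Cd74: catttctgacccattagcagtctttaatgt

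RT1-Da: atattctattttccatcatttatagtaatt

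A further probe of the array is described in the files as the invariant chain but is named by a transcript cluster, so that it is no member by gene name; it was noticed after its values were seen. It lies 440 bases before the Cd74 probe on the same strand (rn4, chr18:56764968-56765027). Its level was -0.50, -0.39, -0.97 and -0.22 in control rats 1 to 4 and -1.04, -1.45, -0.45 and -2.60 in stressed rats 1 to 4, a difference of -0.87 (SE 0.42). The low level of stressed rats 1, 2 and 4 and the control-like level of stressed rat 3 were therefore read by both invariant chain probes, which followed each other with r = 0.99 and differed with an SD of 0.12 units. Among all 23678 tested probes, this one had the highest correlation with the Cd74 probe and RT1-Da ranked 2, while 0.118% of the probes had an r over 0.9. The rank of RT1-Da restates the pattern for which it was named.

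**Figure D2:**
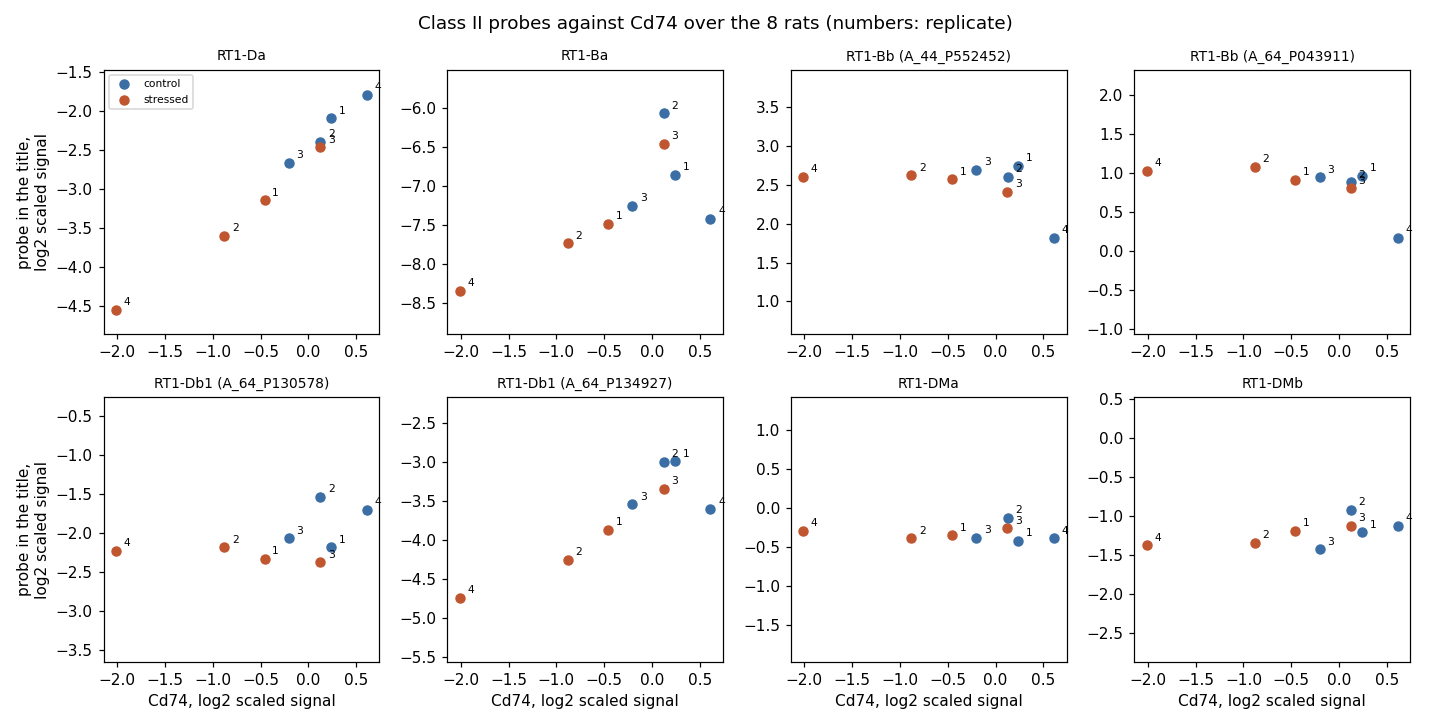
Level of the other tested class II probes (vertical axis, log2 scaled signal, the same span in every panel) against that of Cd74 (horizontal axis, log2 scaled signal) in the 8 rats, with replicate numbers. RT1-Da lies close to a line through all rats, the RT1-Db1 probe A_64_P134927 follows Cd74 except in control rat 4 and RT1-Ba follows it loosely, and both probes of RT1-Bb are lowest in control rat 4, where Cd74 is highest.

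RT1-Db1 encodes a beta chain that pairs with RT1-Da. It has 2 probes, both on chromosome 20, minus strand, in the order of transcription: A_64_P130578, which starts at base 729 of the transcript (rn4, chr20:4672665-4672724), and A_64_P134927, which starts at base 1185 (rn4, chr20:4671516-4671575). They are shown because they read the same gene differently.

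RT1-Db1 A_64_P130578, first 30 bases: acaaaataagaagatgagtggagtcggggg

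RT1-Db1 A_64_P134927, first 30 bases: ttcaagcagaagaaataccattcatgcata

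The 3′ probe A_64_P134927 read -2.99, -3.0, -3.54 and -3.60 in control rats 1 to 4 and -3.87, -4.25, -3.34 and -4.74 in stressed rats 1 to 4, a difference of -0.77 (SE 0.30). Stressed rats 1, 2 and 4 were again below all control rats and stressed rat 3 was not, and the correlation with Cd74 was 0.88 (0.78 for deviations from the group means). Without stressed rats 2 and 4, the rats farthest from the median of Cd74, this correlation was 0.42, and without control rat 4 it was 0.96. It thus depends on which rats are included. The brighter probe A_64_P130578, a single spot, read -2.19, -1.54, -2.07 and -1.70 in control rats and -2.34, -2.19, -2.38 and -2.23 in stressed rats, a difference of -0.41 (SE 0.15). Here the stressed rats were close together, with an SD of 0.09, stressed rat 2 lay at the level of the lowest control rat, and the correlation with Cd74 was 0.43. Both probes were lower in stressed rats on average, but their levels over the rats correlated with an r of only 0.38, and -0.21 for deviations from the group means. Without control rat 2 the differences were -0.67 and -0.30. Wistar rats are outbred and class II genes are polymorphic, and whether alleles under either probe differed between the rats was not tested. A part of the 5′ minus 3′ difference of the arrays was not tested either. With that difference as a covariate, A_64_P130578 differed by -0.71 between the groups.

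RT1-Ba and RT1-Bb encode the alpha and the beta chain of the RT1-B molecule, the counterpart of HLA-DQ, and their probes did not follow each other. RT1-Ba (rn4, chr20:4700973-4701032, plus strand) was near background: its probe was well above background in 3 control rats and 1 stressed rat, and its spots differed by up to 1.07 units. Its level was -6.86, -6.07, -7.26 and -7.42 in control rats 1 to 4 and -7.49, -7.74, -6.46 and -8.35 in stressed rats 1 to 4. Stressed rats 1, 2 and 4 were the lowest of all rats also here, and stressed rat 3 was above 3 of the control rats. The correlation with Cd74 was 0.74. It was 0.19 without stressed rats 2 and 4 and 0.89 without control rat 4, so it depends on which rats are included. The difference was -0.61 (SE 0.44), with -0.33 without stressed rat 4 and -0.33 without control rat 2, and after another background correction, normexp with an offset of 50, the difference was -0.02 and the correlation with Cd74 0.0028.

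RT1-Bb gave a strong signal, between 8212 and 14962 for the probe A_44_P552452 (rn4, chr20:4730533-4730583, minus strand). Its level there was 2.74, 2.60, 2.69 and 1.81 in control rats 1 to 4 and 2.57, 2.62, 2.41 and 2.60 in stressed rats 1 to 4. Control rat 4, the rat with the highest Cd74 and RT1-Da, was the lowest of all rats in RT1-Bb, and the other rats lay within a narrow band. The second probe of the gene, A_64_P043911 (rn4, chr20:4732187-4732246, minus strand), read 0.96, 0.88, 0.95 and 0.17 in control rats and 0.91, 1.08, 0.81 and 1.03 in stressed rats, with control rat 4 again the lowest. The deviations of both probes from their group means correlated with r = 0.99, and the longest run of bases they share was 6. Their levels correlated with r = 0.96, but with 0.56 without control rat 4 and 0.04 without control rat 4 and stressed rat 3, so the close relation rests on control rat 4. The differences were 0.09 (SE 0.20) and 0.22 (SE 0.18), and -0.13 and 0.03 without control rat 4. Without control rat 2 they were 0.14 and 0.26. A single-spot probe named LOC688090 and described as a similar RT1-B beta chain, no member by name and noticed after its values were seen, read -0.67 in control rat 4 and -0.07 to 0.17 in the other rats. Its correlation with A_64_P043911 was 0.99, and 0.89 without control rat 4. The files list both transcripts for A_64_P043911, so these genes share signal and are uncertain as separate readings.

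RT1-Bb A_44_P552452, first 30 bases: cagctgtgacagttgtgaaataccctagct

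RT1-Bb A_64_P043911, first 30 bases: tttgtgctgggggtgatcttcctcgggctt

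These first 30 bases of the RT1-Bb probes are printed because 2 unlike sequences of 1 gene gave the low reading of control rat 4. Over the 8 rats the correlation with Cd74 was -0.43 for A_44_P552452 and -0.61 for A_64_P043911, and -0.67 and -0.73 without stressed rats 2 and 4. Without control rat 4 it was -0.0055 and -0.67, so for A_44_P552452 it rests on that rat.

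The DM molecule, which takes the invariant chain remnant out of the groove and edits the peptides, is made of RT1-DMa and RT1-DMb. RT1-DMa (rn4, chr20:4844372-4844431, minus strand) read -0.43, -0.13, -0.38 and -0.39 in control rats 1 to 4 and -0.35, -0.39, -0.26 and -0.29 in stressed rats 1 to 4. Its range over all rats was 0.29 units, the smallest among the tested member probes, and its highest rat was control rat 2. The difference was 0.01 (SE 0.09), and 0.07 without control rat 2. RT1-DMb (rn4, chr20:4830313-4830372, minus strand) read -1.21, -0.92, -1.43 and -1.12 in control rats and -1.19, -1.35, -1.13 and -1.38 in stressed rats. The groups overlapped, and the difference was -0.09 (SE 0.12) and -0.01 without control rat 2. Stressed rat 4, the rat with the lowest Cd74, lay within the control range of both genes, at -0.29 for RT1-DMa and -1.38 for RT1-DMb.

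Ciita, the transactivator of the class II genes (chromosome 10, rn4, chr10:5087176-5087235, minus strand), gave processed signals of 3.63 to 8.45, not well above background on 8 of 8 arrays. No difference is given for it.

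**Figure D3:**
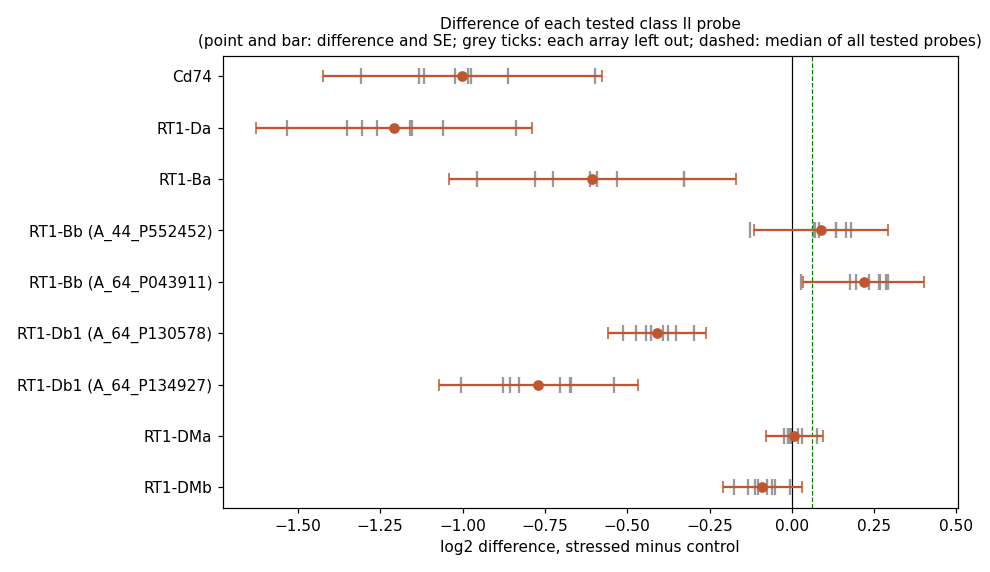
Stressed minus control difference of each tested class II probe on the log2 scale. Points and bars are the difference and its SE in the limma fit, grey ticks are the same difference with each array left out in turn, and the dashed line is the median of all tested probes at 0.06. Cd74, RT1-Da, RT1-Ba and both RT1-Db1 probes lie to the left of 0 with every array left out, and the RT1-Bb and DM probes lie near 0.

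Of the 9 tested member probes, 6 had a lower mean in stressed rats, beside 9572 of all 23678 tested probes. The median difference of the 9 was -0.41, beside 0.06 for all tested probes. In limma at FDR below 0.1, 0 of the 9 member probes were called, beside 3.74% of all tested probes. At an unadjusted p below 0.05, 4 of 9 were counted, against 20.3% of all tested probes, and all 4 (Cd74, RT1-Da and both RT1-Db1 probes) were lower in stressed rats, where the share of all tested probes was 6.67%. These 4 are given for completeness, since the group was chosen from this comparison. By the size of the fall alone, 0.165% of all tested probes fell further than Cd74 and 0.0845% further than RT1-Da. Cd74 was chosen for its lower level and RT1-Da for sharing its pattern, so both shares restate that choice. By spread over the 8 rats, 3.26% of the tested probes had a larger SD than Cd74 (0.83) and 2.49% a larger SD than RT1-Da (0.90), where the median probe had 0.22. For RT1-DMa 89.0% of the probes had a larger SD.

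The promoters of the class II genes were read from RefSeq (GRCr8), from 250 bases before to 50 bases after the start of each gene, for the 6 members that matched by symbol: Cd74, RT1-Da, RT1-Db1, RT1-Ba, RT1-Bb and RT1-DMa. RT1-DMb and Ciita are named only. Motifs were chosen after these sequences were read, as the X box core GNNACNGAT and the Y box TGATTGG, searched on both strands and not overlapping each other. An X box core followed by a Y box on the same strand, with 25 to 35 bases from start to start, was found in 4 of the 6 member promoters, RT1-Da, RT1-Db1, RT1-Bb and RT1-DMa. The same arrangement occurs in 7 of all 33469 promoters of the table (0.0209%), of which RT1-Db2 and RT1-DOb are also class II genes. Alone, the X box core occurs in 7.83% and the Y box in 7.06% of all promoters. The 57-base windows are shown for the members that hold a Y box, with the X box core and the Y box in capitals, read 5′ to 3′ along the gene.

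RT1-Da, GRCr8 chr20:4515322-4515378, plus strand: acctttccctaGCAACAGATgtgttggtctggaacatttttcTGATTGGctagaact

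RT1-Db1, GRCr8 chr20:4560230-4560286, minus strand: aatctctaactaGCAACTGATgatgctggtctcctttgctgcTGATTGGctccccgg

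RT1-Bb, GRCr8 chr20:4604167-4604223, minus strand: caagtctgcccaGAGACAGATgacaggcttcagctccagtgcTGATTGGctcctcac

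RT1-DMa, GRCr8 chr20:4712387-4712443, minus strand: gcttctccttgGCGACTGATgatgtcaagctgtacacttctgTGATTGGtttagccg

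RT1-Ba, GRCr8 chr20:4576970-4577026, plus strand: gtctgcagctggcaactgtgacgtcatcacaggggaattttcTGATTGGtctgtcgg

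The X box core began 82, 112, 93 and 97 bases before the start of RT1-Da, RT1-Db1, RT1-Bb and RT1-DMa, and the Y box 30 or 31 bases after it. RT1-Ba held the Y box 45 bases before its start, and the letters of the X box core were not in its window. In the Cd74 promoter neither string of letters was present, which says nothing about the factors that bind there. RT1-Da, whose level varied 6.78-fold between rats, and RT1-DMa, whose level varied 1.23-fold, both held the arrangement.

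Other genes of the pathway were taken from fixed lists, with 84 genes tested of 102 listed. Of the 15 tested genes of invariant chain cutting and the loading compartment, 2 were called at FDR below 0.1 in limma and both were higher in stressed rats, with a median difference of 0.06 over the list. Sppl2a, the intramembrane protease that removes the last stub of the invariant chain, averaged -1.83 ± 0.14 (SD, n = 4) in the controls and -1.28 ± 0.03 (SD, n = 4) after stress, a rise of 0.55 (SE 0.08, adjusted p = 0.0435 in limma). Cd9, a tetraspanin of the membranes that hold class II molecules and also abundant in myelinating cells, rose by 1.84 (SE 0.33, adjusted p = 0.0590 in limma). The groups did not overlap for either. Both calls were lost when any array except that of control rat 2 was left out, with adjusted p values of at least 0.114 for Sppl2a and 0.119 for Cd9. They were also lost with replicate number as a block. The enzymes best known for cutting the invariant chain were picked here by role after their values were seen. Ctss (cathepsin S) read 2.91 ± 0.12 and 2.94 ± 0.09 and Lgmn (the asparagine endopeptidase) 1.64 ± 0.11 and 1.80 ± 0.08 in control and stressed rats (SD, n = 4), with differences of 0.04 and 0.16 that did not pass the test. Ctsl1 (cathepsin L) read 2.65 ± 0.01 and 2.92 ± 0.22 (SD, n = 4), a difference of 0.26 (SE 0.11) that was below an unadjusted p of 0.05 but was not called in limma (adjusted p = 0.244).

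Of the 16 tested genes that switch on class II transcription, 1 was called. Jak1, a kinase of the interferon gamma receptor, rose by 0.43 (SE 0.10, adjusted p = 0.0921 in limma), and the call was lost without any single array except control rat 2 (adjusted p of at least 0.160). The median of this list was 0.18. Ifng itself was not well above background on any array. Rfx5, a subunit of the X box factor, differed by 0.24 (SE 0.25) and did not pass the test. Among the further class II genes only RT1-DOb, a chain of the DM inhibitor DO, was tested, with a difference of 0.39 (SE 0.25, not called), and RT1-DOa and RT1-Ha were not well above background on any array. None of the remaining lists held a call in limma at FDR below 0.1. Of 25 tested class I presentation genes, 7 were higher and 1 lower at an unadjusted p below 0.05 in limma (median 0.25), beside 13.6% higher and 6.67% lower of all tested probes. Their largest differences were 0.80 (SE 0.33) for RT1-CE12, which is among the 7, and 0.70 (SE 0.50) for RT1-CE10, which is not, and both may share signal with the other near-identical RT1-CE genes. Of 10 tested partners of CD74 and class II, 2 were higher at that level (median 0.28), Icoslg at 0.72 (SE 0.30) and Cd44, a partner of CD74 in signalling that is named after its values were seen, at 0.37 (SE 0.16). Lag3, a class II receptor of T cells, had the largest difference of the list at 1.25 (SE 0.56) and did not reach that level. Of 17 tested interferon response genes 0 reached it (median 0.09), with Cxcl9 at -0.44 (SE 0.22) and Irf8 at 0.40 (SE 0.22).

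**Figure D4:**
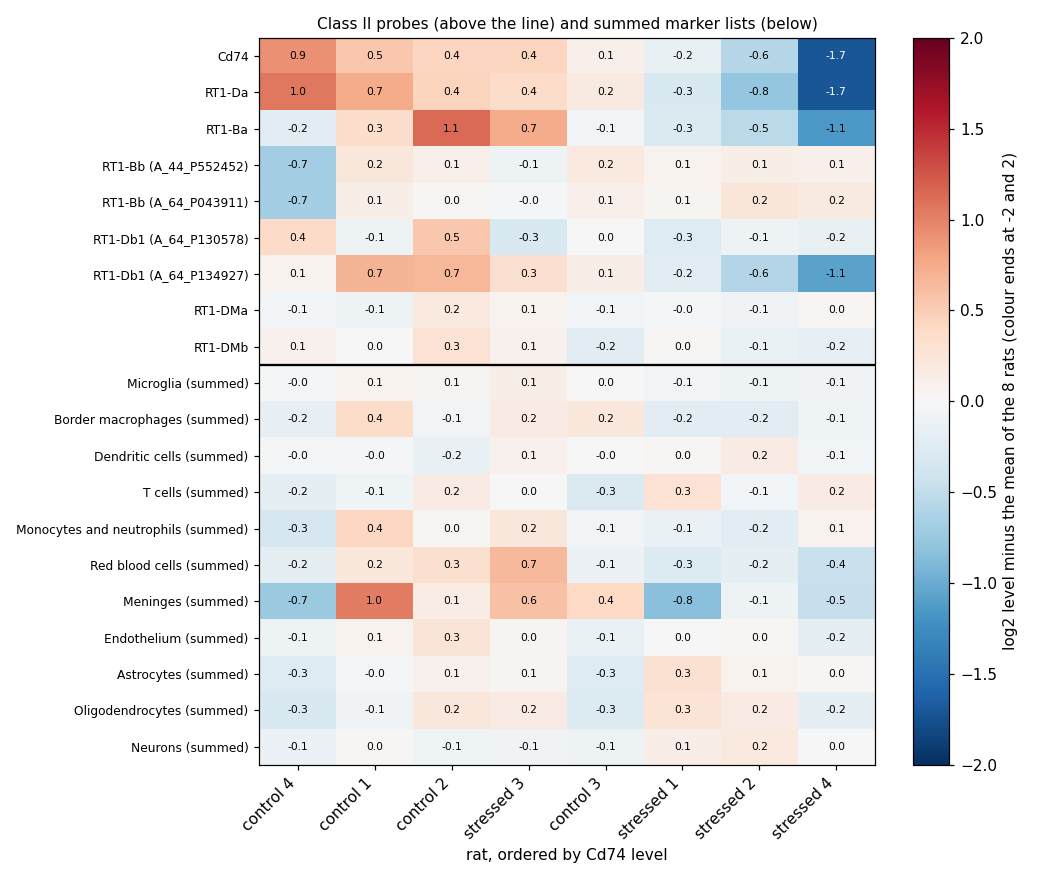
Level of each tested class II probe (above the line) and summed level of marker lists with at least 3 tested genes (below), as log2 difference from the mean of the 8 rats, with the rats ordered by Cd74. Cd74 and RT1-Da fall together from left to right, the DM genes and microglia vary little, and the meninges list varies between a summed level of 1.18 in stressed rat 1 and 3.03 in control rat 1, in another order of rats.

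Marker lists of cells that carry class II or that the dissection could hold were summed in each rat, and their part in the class II levels was not tested. The 16 microglia markers, all tested and with no call, summed to between 4.94 and 5.05 in control rats and between 4.88 and 5.09 in stressed rats, a range far below that of Cd74, and over the rats this sum correlated with Cd74 with r = 0.63. Their largest differences were 0.28 for Csf1r and 0.18 for P2ry13. Of the 8 tested markers of border macrophages, 7 had a lower mean in stressed rats, beside 9572 of all 23678 tested probes. None was called, and 2 were lower at an unadjusted p below 0.05 in limma, beside 6.67% of all tested probes. The sum lay between -0.85 and -0.31 in control rats and between -0.89 and -0.52 in stressed rats. Cd163, a haemoglobin receptor of perivascular macrophages, differed by -0.79 (SE 0.40) and F13a1 by 0.47 (SE 0.23), while Mrc1 was not well above background on any array. Over the 8 rats the sum of the border macrophage markers, by signal mostly Folr2 and Pf4, correlated with Cd74 with r = 0.33. The median r of the 8 single markers was 0.29. Single markers ranged from r = -0.34 for Folr2 to r = 0.76 for Siglec1, both named after their values were seen. The level of Siglec1 was highest in control rat 3.

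The defining markers of lymphocytes and conventional dendritic cells were near background. Of the T cell list Cd3e, Cd2, Cd5 and Cd8a, of the B cell list Ms4a1, Cd79b and Blk, and of the dendritic cell list Xcr1 and Clec9a were not well above background on any array. The 3 tested T cell genes, by signal mostly Cd3d, summed to between -2.11 and -1.66 in control rats and between -1.88 and -1.54 in stressed rats. The 4 tested dendritic cell genes, by signal mostly Flt3, summed to between -1.29 and -1.14 and between -1.18 and -0.97. Among these T cell and dendritic cell genes Cd3g differed by -0.43 and Cd3d by 0.27, and Ccr7 by 0.61 and Flt3 by 0.11, with none called. The 6 tested monocyte and neutrophil genes summed to between -1.38 and -0.63 in control rats and between -1.26 and -0.81 in stressed rats, with none called, Mpo at a difference of 1.36 (SE 0.84), Ly6c at -0.50 (SE 0.18) and Ccr2 not well above background.

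Markers of other tissue in the sample also varied between rats. Of the Schwann cell list, which reports nerve root, Cldn19 differed by -1.21 (SE 0.93) and Pmp2 by -1.18 (SE 0.92), neither called, and over the 8 rats they correlated with Cd74 with r = 0.39 and 0.44. The 8 meninges markers summed to between 1.27 and 3.03 in control rats and between 1.18 and 2.61 in stressed rats. All 8 had a lower mean in stressed rats, beside 9572 of all 23678 tested probes, and none was called. The largest differences were -0.95 (SE 0.64) for Col3a1 and -0.45 (SE 0.50) for Col1a1. Over the 8 rats the meninges sum correlated with Cd74 with r = 0.31. Red blood cell genes, 5 tested, lay between 6.24 and 6.74 in control rats and between 5.97 and 7.07 in stressed rats, with r = 0.60 with Cd74 for their sum, stressed rat 4 at the lowest and stressed rat 3 at the highest level, and differences of -0.34 for Alas2 and -0.23 for Hbb-b1. The endothelial list held 1 call of 5, Pecam1, with a rise of 0.40 (SE 0.09, adjusted p = 0.0927 in limma), and the oligodendrocyte list 1 of 5, Mog, with a rise of 0.90 (SE 0.18, adjusted p = 0.0721 in limma). Both calls were lost without any array other than control rat 2 (adjusted p of at least 0.132 and 0.133). The sums of these lists lay between 2.45 and 2.89 and between 7.82 and 8.40 over all rats. The 6 astrocyte genes summed to between 7.59 and 8.15 and the 4 neuronal genes to between 7.13 and 7.45, without a call in limma, led by Gfap at 0.81 (SE 0.43), Slc1a2 at 0.42 (SE 0.20), Nefl at 0.57 (SE 0.15) and Syt1 at 0.32 (SE 0.18), so the labelled tissue carried its own markers in every rat.

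Outside these lists, the 5 gene symbols closest to Cd74 over the 8 arrays were C1qtnf9, Cd177, Asb11, Gas7 and Atp6v1e2, with r between 0.92 and 0.95 among 13346 symbols. Each had the lowest level in stressed rat 4, but spanned less, between 0.38 units for Atp6v1e2 and 1.74 units for Cd177, a glycoprotein of neutrophils. For the deviations from the group means the closest were Plekhf1, Gpsm2, Snap29, Cmtm5 and Abcg3l3, with r between 0.96 and 0.97. Over all 8 arrays the correlation of these 5 with Cd74 was between -0.05 and 0.37. Cd177 had r = 0.95 over the 8 arrays and 0.95 for the deviations, where RT1-Da had 0.99 and 0.99.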

How the data were processed

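Total RNA of 8 spinal cords was measured on 8 arrays. The authors extracted it with the RNeasy kit and scanned Agilent 1-colour arrays, and the intensity values they deposited come from Agilent Feature Extraction 10.7.3.1, which subtracted background and detrended each array per the file headers. The methods name dChip for the comparison. The authors' table of values held the same intensity signal, with a largest difference of 0.05. Neither had been normalized between arrays.

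From these files, the log2 processed signal minus the 75th percentile of each array was averaged over the spots of a probe, with spots marked as outliers and 4259 control spots left out. A probe was tested if well above background on at least 4 of 8 arrays, as were 23678 of 30367. For a probe with several spots, a share of 0.5 of them had to be so. The comparison of stressed with control rats used limma 3.58.1 (lmFit, then eBayes, in R 4.3.3) without covariate, the P values being two-sided and adjusted by Benjamini-Hochberg over all tested probes, with calls at FDR below 0.1. The fit was tested on simulated data. The brightest tested probe stood for a gene of a list. Nothing in the labels says more of how the 4 rats of a group were raised, so P values measure the spread between these rats only. Arrays give no counts, and their number limits the precision.

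The member genes, the lists and the alternatives were chosen with earlier results of these data known. Genes named are every member, every called gene of a list and otherwise the 2 tested genes of it with the largest difference, and the 5 symbols closest to Cd74 by correlation over the arrays and by deviations from the group means (names that are only a clone, transcript or locus number not counted). Exceptions are marked in the text. The lists were further class II genes, loading, class II transcription, class I, partners, interferon response, and markers of microglia, border macrophages, dendritic cells, B cells, T cells, monocytes and neutrophils, red blood cells, meninges, endothelium, Schwann cells, astrocytes, oligodendrocytes and neurons. Some genes of these lists are not reported here, and no sum is given for the B cell and Schwann cell lists. The summed level of a list is the log2 of the sum of its tested genes on the linear scale. The brightest probes therefore weigh most in it, such as Aldoc for astrocytes, and it is no measure of the number of cells. Alternatives were normexp in place of the processed signal (offset 50), quantile normalization, the authors' table, no filter on dim probes or a filter on all 8 arrays, robust eBayes with a trend, array weights, replicate number as a block, a covariate for the 5′ minus 3′ difference (probes of a transcript at least 300 bases apart), and each array left out in turn. Probe positions are on rn4 as given in the files, and promoters are from RefSeq (GRCr8).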

Additional observations from a re-analysis of the deposited data

Results flagged for a closer look

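In 22 groups of 4 rats (the control and the stressed rats for each of 10 member probes and for the first principal component), the highest or lowest rat was compared with the others by its gap to the nearest one as a share of the range of the group. About 1 in 20 such groups is marked by chance, which is 1.1 of 22, and 4 were found. Control rat 4 stood apart from the other control rats in both probes of RT1-Bb, with a share of 0.852 for A_44_P552452 and 0.893 for A_64_P043911, where it was the lowest. Control rat 2 stood apart as the highest in RT1-DMa, with a share of 0.854, over a range of 0.29 log2 units for all 8 rats. The same rat was far from its group on the first principal component of all tested probes, with a share of 0.835. The marks are not independent, since those of RT1-Bb share a gene and a rat and the others share control rat 2. No excess over 1.1 is therefore read from the 4, and their causes were not tested.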

How the results depend on the processing

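The member differences of Cd74, RT1-Da, RT1-Ba and RT1-Db1 kept their negative sign under all alternatives run, between -1.31 and -0.60 for Cd74, -1.53 and -0.84 for RT1-Da, -1.29 and -0.02 for RT1-Ba and -0.71 and -0.28 for RT1-Db1 A_64_P130578. That of RT1-Bb A_44_P552452 ranged from -0.13 to 0.18, that of RT1-DMa from -0.14 to 0.07 and that of RT1-DMb from -0.32 to 0.01. Under normexp, quantile normalization and each array left out, the second probes lay between -1.01 and -0.43 for RT1-Db1 A_64_P134927 and between 0.03 and 0.29 for RT1-Bb A_64_P043911. With the 5′ minus 3′ covariate, RT1-Db1 A_64_P130578, RT1-DMa and RT1-DMb moved to -0.71, -0.14 and -0.32. The counts of calls moved more, and the cause was not tested. Against 0 member probes, 885 probes in all, 3 pathway genes and 2 marker genes, limma called 1 member (RT1-Db1 A_64_P130578) and 4 marker genes after quantile normalization, 215 probes and 0 marker genes after normexp, 3010 probes and 4 marker genes without a filter, and 4 marker genes with a variance trend. With the covariate it called 1 member (RT1-Db1 A_64_P130578), 2321 probes and 5 pathway genes, and with array weights 4 members (Cd74, RT1-Da and both RT1-Db1 probes), 11983 probes, 46 pathway and 26 marker genes. With 1 array left out, between 0 and 1 members, 0 and 10036 probes, 0 and 39 pathway genes and 0 and 17 marker genes were called. The upper ends all came without control rat 2, where the called member was RT1-Da, and without any other array at most 72 probes and 0 genes of the lists were called. Without control rat 2, the 5′ minus 3′ difference of the arrays and stress cannot be told apart. Same-numbered rats shared a column of the slide, and their deviations correlated at -0.09 to 0.31 over the 4 pairs of numbers. So few pairs cannot decide whether the numbers pair the samples. With replicate number as a block 0 members, 0 probes, 0 pathway genes and 0 marker genes were called.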
